A study of Mus musculus with 6 samples.

Results

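Histone-modifying enzymes and the proteins that read their marks were examined in the neocortex of newborn mice with the transcription factor Tcf4 intact or conditionally deleted. The genes were taken by name: every row whose symbol begins with Kdm, Kmt, Setd, Phf, Hdac, Kat, Prdm or Sirt and a digit (Setdb1 and Setdb2 included, the Y-linked Kdm5d left out), the Ehmt and Ezh genes, and Suz12, Eed, Nsd1, Ep300, Crebbp and Ash1l. This gave 98 genes of the 15703 in the table. RNA came from whole neocortex of C57BL/6 mice on postnatal day 0, from 3 wild-type (WT) animals and 3 conditional knockouts (cKO) of the genotype Tcf4 f/f; Emx1Cre/+. The Emx1 driver of Cre works in dorsal progenitors that give rise to excitatory neurons and glia, so interneurons, microglia and vessels of the same tissue keep their Tcf4. The labels do not say whether the WT animals carried floxed alleles or Cre. The libraries are called WT 1 to 3 and cKO 1 to 3, and 6 different animal codes in the titles were read as 6 animals.

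Histone tails carry acetyl and methyl groups that writers add, erasers remove and readers bind. Acetylation by the Kat enzymes, Ep300 and Crebbp accompanies active transcription and is reversed by the Hdac enzymes and nuclear sirtuins. Methylation depends on the residue: H3K4 methylation by the Kmt2 and Setd1 enzymes marks promoters and enhancers, H3K36 methylation marks transcribed gene bodies, and H3K9 methylation (Ehmt1, Ehmt2, Setdb1) and H3K27 methylation (Polycomb repressive complex 2) accompany silencing. The Kdm enzymes take these methyl groups off. In the cortex the group is known from disorders of intellectual development caused by mutations in several of its genes, among them KMT2A, EHMT1, KDM5C and PHF8. Some genes taken by name act elsewhere: Sirt3, Sirt4 and Sirt5 are mitochondrial, Phf5a is a subunit of the spliceosome, Setd3 methylates actin and Hdac6 deacetylates tubulin.

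Of the 98 genes, 1 was called lower in the cKO and 15 were called higher by modest amounts. Prdm8, a PR domain repressor of projection neurons, fell to 0.404 times its WT level. In the other direction 15 genes rose by 1.16-fold to 1.42-fold, 6 of them lysine demethylases (Phf8, Phf2, Kdm2b, Kdm6b, Kdm3a, Kdm2a), and 82 did not pass the test. Expression is given as FPKM (fragments per kilobase of exon, scaled to depth), and a gene was called at an adjusted p under 0.05 in limma's test on log2(FPKM + 1), with Benjamini-Hochberg adjustment over all 15703 genes. Of all genes in the table, 7.22% were called higher and 8.59% lower. Among the 98 genes the shares were 15.3% and 1.02%. The shares over all genes in this paragraph are also the ones to set beside counts in the classes and gene lists below. This holds for calls, for groups without overlap and for positive signs. The groups did not overlap in 36 of the 98 with cKO higher (18.5% of all genes) and in 4 with cKO lower (18.7% of all genes). The median log2 change was 0.12 over the 98 and 0.0017 over all genes, and 79 of the 98 had a positive sign against 50.4% of all genes.

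Like the share of all genes called higher, the count among the 98 changed when a library was left out. It was 3 (Hdac1, Phf8 and Phf13) without WT 1, without cKO 1 or without cKO 2, which is 3.06% of the 98 and close to the 3.46%, 3.6% and 3.68% of all genes called in the same fits. It was 7 without WT 3 (5.1% of all genes), 8 without cKO 3 (5.35%) and 28 without WT 2 (10%). The median log2 change of the 98 lay between 0.10 and 0.15 without each library, and Prdm8 was the 1 gene called lower in each of these fits, in which 5.29%, 9.66% and 7.2% of all genes were called lower without WT 1, 2 and 3 and 5.29%, 5.34% and 6.79% without cKO 1, 2 and 3. In limma's voom on recovered reads 29 of the 98 were called higher (10.8% of all genes): the same 15 and 14 more, among them Kmt2d, Setd1b, Kmt2c, Ehmt1, Kmt5a, Ezh2, Kat2b, Ep300 and Sirt3. Statements below that a gene did not pass refer to the test on log2(FPKM + 1) in all 6 libraries.

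**Figure D1:**
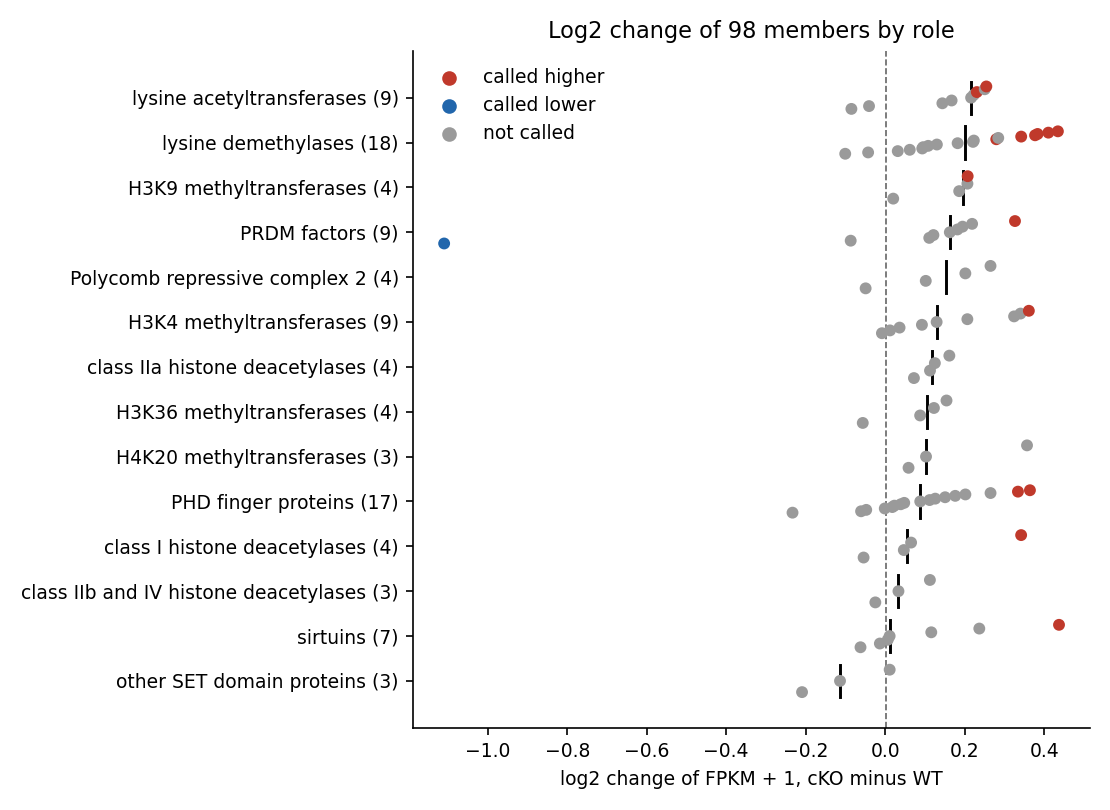
Log2 change of FPKM + 1 (cKO minus WT, horizontal axis) for each of the 98 genes, grouped by role with the number of genes in parentheses; red and blue points were called higher and lower, grey points were not called, the black bars are group medians and the dashed line is the median of all genes. Prdm8 stands alone at -1.11, while 13 of the 14 role medians lie above 0.

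All 98 genes were detected in every library, and 93 had a mean of at least 1 FPKM. The mean over the 6 libraries ran from 0.229 FPKM (Prdm1) to 74.1 FPKM (Hdac2), with a median of 11.1 FPKM against 5.47 FPKM for all genes. Genes under 1 FPKM included Prdm1, Phf11c, Phf19 and Prdm9, the last a methyltransferase known from meiosis, and these were not called. In 15 of the 98 genes more than 5% of the exon length was shared with another gene, so that reads there could belong to either.

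Promoter windows are printed for Prdm8, the gene that fell most, and for Phf13 and Phf8, which rose in each fit that left out a library. Tcf4 and related helix-loop-helix factors bind the E-box, CANNTG, a motif that reads alike on both strands when its centre is left free. The windows run from 250 bases before to 50 bases after a start site annotated in RefSeq (build GRCm38.p6), 5′ to 3′ on the strand of the gene. Capitals mark each CANNTG.
Prdm8, chr5:98180619-98180918, plus strand: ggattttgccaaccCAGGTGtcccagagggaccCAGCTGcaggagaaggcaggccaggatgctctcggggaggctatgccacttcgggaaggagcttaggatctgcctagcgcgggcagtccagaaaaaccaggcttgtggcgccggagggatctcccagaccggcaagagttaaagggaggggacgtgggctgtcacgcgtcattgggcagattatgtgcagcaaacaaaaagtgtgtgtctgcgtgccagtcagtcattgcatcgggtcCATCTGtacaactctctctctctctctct
Phf13, chr4:151996130-151996429, minus strand: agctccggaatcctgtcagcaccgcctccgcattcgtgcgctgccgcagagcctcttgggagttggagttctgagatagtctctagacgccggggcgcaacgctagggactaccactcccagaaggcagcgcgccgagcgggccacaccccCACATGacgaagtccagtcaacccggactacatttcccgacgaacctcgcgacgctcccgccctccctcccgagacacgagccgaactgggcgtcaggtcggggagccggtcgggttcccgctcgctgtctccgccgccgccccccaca
Phf8, chrX:151520422-151520721, plus strand: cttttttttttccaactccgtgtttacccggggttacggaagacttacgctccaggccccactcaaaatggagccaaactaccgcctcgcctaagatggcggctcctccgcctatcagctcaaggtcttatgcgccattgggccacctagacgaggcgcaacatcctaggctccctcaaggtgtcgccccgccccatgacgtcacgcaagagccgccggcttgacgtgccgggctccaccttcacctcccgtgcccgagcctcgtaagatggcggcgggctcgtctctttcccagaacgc

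The Prdm8 window held 3 matches, among them the forms CAGCTG and, nearest the 5′ end of the window, CAGGTG. This window lies inside the gene (98167198 to 98188991, plus strand), at an internal start site and not at the 5′ end of the gene. The Phf13 and Phf8 windows lie at the 5′ ends of their genes. The Phf13 window held 1 and the Phf8 window held none, which says only that these letters are not in this window. CANNTG was present in 72.3% of all 32851 promoter windows of this length and in 63.9% of the 108 windows of 78 of the 98 genes that the RefSeq table matched. Among the 15 genes that rose, 11 matched with 17 windows, and 12 of these (70.6%) held CANNTG. The form CAGCTG, itself a CANNTG, was found in 16.3% of all windows, 17.8% of those of genes that were not called and 23.5% of those of genes that rose. CAGGTG on either strand was found in 20.2%, 17.8% and 17.6%. The CAGCTG share of genes that rose is 4 of 17 windows, in Kdm2b, Kmt2a and Kat8, the last with more than 1. Windows of the same gene were counted separately and are not independent. A match is a string of letters and not a binding site, and no binding was measured here.

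Tcf4 itself was lower in the cKO, at 71.2, 75.6 and 75.3 FPKM (WT) against 56.5, 60.6 and 55.3 FPKM (cKO; adjusted p = 0.00411). The value covers the whole gene and all cells of the tissue.

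Prdm8 (ENSMUSG00000035456, chromosome 5, 98167198 to 98188991, plus strand, mm10) belongs to the PRDM family, zinc finger factors with a PR domain related to the SET domain, and acts with the helix-loop-helix factor Bhlhe22 as a repressor. Libraries WT 1, 2 and 3 measured 8.66, 8.62 and 9.78 FPKM, against 3.86, 3.4 and 3.66 FPKM for cKO 1, 2 and 3. Every cKO library lay below every WT library, and the groups were well apart relative to their spread. The mean fell from 9.02 ± 0.658 to 3.64 ± 0.234 FPKM (SD, n = 3 per group, limma), a log2 change of -1.11 (SE 0.0798, adjusted p = 2.36e-05). The largest adjusted p without a library was 0.000269, without cKO 1. An antisense gene, A730035I17Rik, shares 29.1% of the exon length of Prdm8. It fell from 0.837 ± 0.128 to 0.218 ± 0.0737 FPKM (adjusted p = 0.000912), and without a stated strand setting the reads of the shared part cannot be assigned to either gene. As in any bulk tissue, fewer cells of a type and less RNA per cell cannot be told apart here.

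Prdm2 was the only other PRDM factor called. Prdm2 (chromosome 4, 143107391 to 143212995, minus strand), also known as RIZ, measured 15.9, 16.7 and 13.3 FPKM (WT) against 20.6, 20.1 and 17.6 FPKM (cKO). Its cKO libraries were all above the WT libraries, with cKO 3 closest to WT 2, and it rose 1.27-fold (adjusted p = 0.0404). In 4 leave-one-out fits it was not called (adjusted p as high as 0.139, cKO 1 left out). Of the 9 PRDM factors grouped together, 7 did not pass; Prdm1, at 0.265 ± 0.0182 FPKM (WT) against 0.192 ± 0.0241 FPKM (cKO), was the other PRDM factor with all cKO libraries below all WT libraries (adjusted p = 0.295). The median log2 change of the 9 was 0.16.

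**Figure D2:**
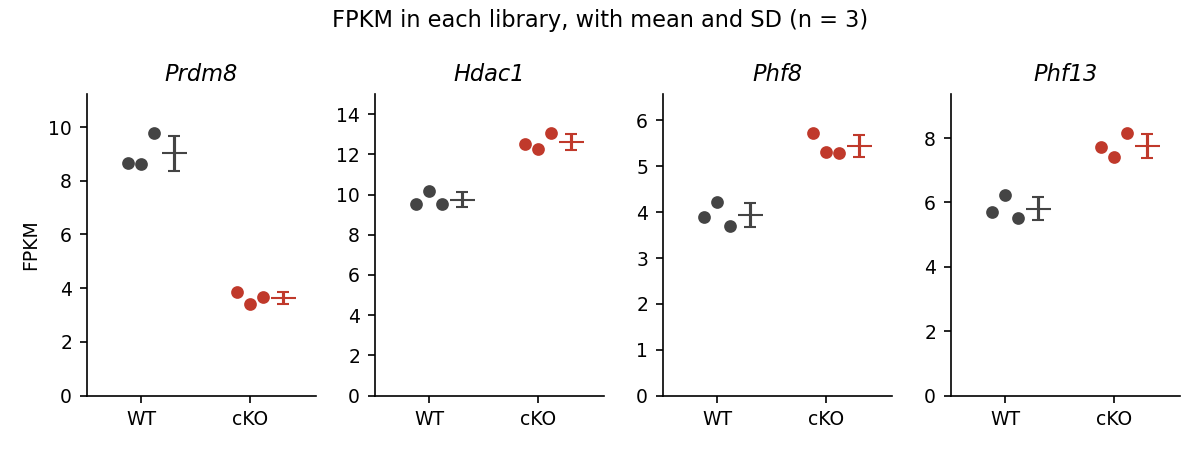
FPKM (vertical axes from 0) of Prdm8, Hdac1, Phf8 and Phf13 in each of the 3 WT (dark) and 3 cKO (red) libraries, with the group mean and SD beside the points. Prdm8 ranged from 8.62 to 9.78 FPKM (WT) and from 3.4 to 3.86 FPKM (cKO); in the other panels all cKO points lie above all WT points.

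Hdac1, a catalytic subunit of the Sin3, NuRD and CoREST deacetylase complexes, had the smallest p among the genes that rose. Hdac1 (ENSMUSG00000028800, chromosome 4, 129516104 to 129542713, minus strand) measured 9.51, 10.2 and 9.54 FPKM (WT) against 12.5, 12.3 and 13.1 FPKM (cKO). The groups did not overlap and their spread was small, and the mean rose by 29.5% from 9.74 ± 0.376 to 12.6 ± 0.405 FPKM (log2 change 0.34, SE 0.0651, adjusted p = 0.00694). The call held without each library in turn (adjusted p of up to 0.0361 without WT 1). Its close paralog Hdac2 was the most abundant of the 98 genes, at 69.8, 75.2 and 72.1 FPKM (WT) against 71.6, 77.9 and 77.8 FPKM (cKO). The groups overlapped and Hdac2 did not pass (adjusted p = 0.497). The ratio of Hdac2 to Hdac1 FPKM was 7.34, 7.39 and 7.56 in WT and 5.73, 6.34 and 5.96 in cKO, without overlap; this ratio was chosen after the values were seen and was not tested. Among the other class I enzymes, Hdac3 lay at 23.6 ± 1.43 FPKM (WT) against 22.7 ± 0.649 FPKM (cKO) and Hdac8 at 2.52 ± 0.248 and 2.63 ± 0.152 FPKM.

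No class II or class IV deacetylase passed. In class IIa, whose members shuttle between nucleus and cytoplasm, Hdac5 lay at 14.3 ± 2.11 FPKM (WT) against 15 ± 0.719 FPKM (cKO), Hdac7 at 10.5 ± 0.785 and 11.7 ± 2.24 FPKM and Hdac4 at 3.07 ± 0.0940 and 3.55 ± 0.139 FPKM. Hdac4 was the only one of these with all cKO libraries above all WT libraries (adjusted p = 0.178). In classes IIb and IV, Hdac6 was at 13.8 ± 1.26 and 13.5 ± 0.814 FPKM, Hdac10 at 10.6 ± 0.381 and 11 ± 1.70 FPKM and Hdac11 at 7.21 ± 0.516 and 7.89 ± 0.647 FPKM. Their groups overlapped.

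Among the 7 sirtuins, NAD-dependent deacylases, only Sirt4 rose. Sirt4 (chromosome 5, 115478010 to 115484725, minus strand), a mitochondrial enzyme, measured 5.03, 6.07 and 4.43 FPKM (WT) against 7.89, 7.46 and 6.64 FPKM (cKO). WT 2 came nearest to the cKO libraries, which all stayed above it. The rise of 1.42-fold was the largest by ratio of means among the 15 (log2 change 0.44, SE 0.105, adjusted p = 0.0201) and was no longer called in 3 of the leave-one-out fits (up to 0.0850, cKO 1 left out). Sirt3, the main mitochondrial deacetylase, had all cKO libraries (2.47, 2.42 and 2.28 FPKM) above all WT libraries (1.91, 1.85 and 1.87 FPKM) without passing the test (adjusted p = 0.0688). The nuclear Sirt1 lay at 6.90 ± 0.867 FPKM (WT) against 6.80 ± 0.222 FPKM (cKO) and Sirt6 at 8.34 ± 0.441 and 8.42 ± 0.719 FPKM. The cytoplasmic Sirt2, the most abundant sirtuin, was at 15.8 ± 0.276 and 15.8 ± 0.242 FPKM.

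Of the 18 lysine demethylases, 6 were called higher, 12 did not pass and 16 had a positive log2 change (median 0.20). Phf8 (ENSMUSG00000041229, chromosome X, 151520672 to 151633859, plus strand), which removes methyl groups from H3K9 and H4K20, measured 3.89, 4.22 and 3.7 FPKM (WT) against 5.73, 5.3 and 5.29 FPKM (cKO). Its groups were apart by more than the range within either, and the mean rose 1.38-fold (log2 change 0.38, SE 0.0782, adjusted p = 0.00974; up to 0.0450 without cKO 1). Its relative Phf2 (chromosome 13, 48801750 to 48871119, minus strand), an H3K9 demethylase, measured 15.1, 17.4 and 13.1 FPKM (WT) against 19.5, 20.7 and 19.6 FPKM (cKO). It rose 1.31-fold (adjusted p = 0.0229; up to 0.0831 without cKO 2), with a WT spread of 2.18 FPKM against 0.704 in cKO.

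The paralogs Kdm2b and Kdm2a, H3K36 demethylases that bind CpG islands, rose together. Kdm2b (chromosome 5, 122870665 to 122989823, minus strand), which also brings Polycomb repressive complex 1 to those islands, measured 12.1, 13.1 and 10.4 FPKM (WT) against 16.5, 14.7 and 14.5 FPKM (cKO; 1.29-fold, adjusted p = 0.0296). Kdm2a (chromosome 19, 4314419 to 4398285, minus strand) measured 7.51, 8.31 and 6.87 FPKM (WT) against 9.7, 9.47 and 8.96 FPKM (cKO; 1.24-fold, adjusted p = 0.0394). In both genes WT 2 was the highest and WT 3 the lowest WT library. In 4 and 5 leave-one-out fits they were not called (adjusted p as high as 0.114 and 0.127, both with cKO 1 left out). Opposite-strand genes share 8.74% of the exon length of Kdm2b.

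Kdm6b (chromosome 11, 69398508 to 69413675, minus strand), which removes the Polycomb mark from H3K27, measured 21.2, 23.9 and 16.3 FPKM (WT) against 29.6, 27.1 and 26.4 FPKM (cKO). The H3K9 demethylase Kdm3a (chromosome 6, 71588972 to 71632990, minus strand) measured 8.24, 11.7 and 8.41 FPKM (WT) against 13.4, 12.7 and 12.1 FPKM (cKO). In each of these genes the WT libraries spread widely, from WT 3 or WT 1 up to WT 2, and the cKO libraries lay above WT 2. Kdm6b rose 1.35-fold (adjusted p = 0.0331; up to 0.122 without cKO 1) and Kdm3a 1.35-fold (adjusted p = 0.0366; up to 0.131 without WT 1), and their calls were lost without 4 and 5 libraries. Kdm1a, the LSD1 demethylase of H3K4 and the most abundant of the class, measured 42.7 ± 2.78 FPKM (WT) against 45.7 ± 2.09 FPKM (cKO) and did not pass (adjusted p = 0.358). Neither did Kdm4a (33.4 ± 2.68 and 34.1 ± 0.698 FPKM) nor Kdm4b (28.8 ± 3.57 and 31.0 ± 2.34 FPKM), demethylases of H3K9 and H3K36.

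Among H3K4 methyltransferases, Kmt2a rose and 8 of 9 did not pass. Kmt2a (chromosome 9, 44803355 to 44881296, minus strand), the MLL1 enzyme, measured 17.7, 18.8 and 14 FPKM (WT) against 22.9, 22.2 and 20.3 FPKM (cKO). WT 3 was far below the other WT libraries, and the lowest cKO library, cKO 3, was above WT 2. The mean rose 1.29-fold (log2 change 0.36, SE 0.101, adjusted p = 0.0377; lost without 4 libraries, up to 0.129 without cKO 1). Kmt2d, at 10.1 ± 1.58 FPKM (WT) against 13 ± 0.976 FPKM (cKO), lay just outside the threshold (adjusted p = 0.0539); it passed after the length and GC correction (adjusted p = 0.0211) and in limma's voom on recovered reads (adjusted p = 0.00895). Setd1b was at 7.60 ± 1.49 and 9.66 ± 0.393 FPKM (adjusted p = 0.0795) and Kmt2c at 12.9 ± 1.44 and 15 ± 0.421 FPKM (adjusted p = 0.114). In each of these 3 genes no cKO library overlapped a WT library, and 8 of the 9 genes of the class had a positive log2 change. Over all genes, 18.5% had groups apart with cKO higher and 50.4% had a positive sign. These 3 genes have long transcripts. Among genes at least as long as the median of the genes examined here, the shares were 27% and 62.8%.

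Setdb1 (chromosome 3, 95323525 to 95357202, minus strand), which trimethylates H3K9 and silences retroelements, measured 15.7, 16.4 and 15.1 FPKM (WT) against 18.5, 18 and 18.3 FPKM (cKO). The groups were narrow and apart, and the rise of 1.16-fold was the smallest of the 15 (log2 change 0.21, SE 0.0618, adjusted p = 0.0471). Its call was lost without 5 libraries (up to 0.131 without WT 1). The paired enzymes of H3K9 dimethylation did not pass, with Ehmt2 at 42.6 ± 2.45 FPKM (WT) against 48.7 ± 3.47 FPKM (cKO; adjusted p = 0.104) and Ehmt1 at 17.6 ± 1.71 and 20.4 ± 0.731 FPKM (adjusted p = 0.0937).

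No H3K36 or H4K20 methyltransferase passed in the 6-library test. Nsd1 lay at 27.1 ± 2.68 FPKM (WT) against 29.5 ± 1.28 FPKM (cKO), Setd2, the trimethylase of H3K36, at 19 ± 1.56 and 20.3 ± 0.366 FPKM and Ash1l at 13.6 ± 1.26 and 15.3 ± 0.478 FPKM. For H4K20, the monomethylase Kmt5a measured 7.99, 11.5 and 7.54 FPKM (WT) against 11.8, 11.6 and 11.5 FPKM (cKO). WT 2 thus stood with the cKO libraries, and Kmt5a did not pass (adjusted p = 0.0807); it passed without WT 2 (adjusted p = 0.00166) and, with WT 2, in limma's voom on recovered reads (adjusted p = 0.0203). The di- and trimethylases Kmt5b (12.2 ± 0.577 and 13.1 ± 0.305 FPKM) and Kmt5c (9.02 ± 0.433 and 9.46 ± 0.937 FPKM) were not called.

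The core of Polycomb repressive complex 2 was not called in the 6-library fit. Ezh2, its catalytic subunit in dividing cells, measured 11.4, 14 and 11.5 FPKM (WT) against 15.1, 16.3 and 13.6 FPKM (cKO). Library WT 2 lay above cKO 3, and Ezh2 did not pass (adjusted p = 0.0807); it passed in limma's voom on recovered reads (adjusted p = 0.0260) and without WT 2 (adjusted p = 0.0204). Suz12 was at 17.3 ± 1.91 and 18.6 ± 0.404 FPKM and Eed at 6.27 ± 0.651 and 6.03 ± 0.668 FPKM. In the 3 remaining SET domain proteins, Setd3 lay at 18.7 ± 0.490 FPKM (WT) against 17.2 ± 0.241 FPKM (cKO), Setd6 at 8.73 ± 0.481 and 7.41 ± 0.293 FPKM and Setd4 at 2.77 ± 0.477 and 2.80 ± 0.486 FPKM. All Setd3 and Setd6 values in cKO lay below all WT values, without passing the test (adjusted p = 0.217 and 0.0716).

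Of the 9 lysine acetyltransferases, Kat2a and Kat8 rose and 7 did not pass (median log2 change 0.22). Kat2a (chromosome 11, 100704746 to 100712465, minus strand), the GCN5 enzyme of the SAGA and ATAC complexes, measured 16.3, 16.5 and 14.8 FPKM (WT) against 19.7, 18.4 and 19.2 FPKM (cKO; 1.20-fold, adjusted p = 0.0295). Kat8 (chromosome 7, 127912516 to 127925837, plus strand), which acetylates H4K16, measured 8.31, 8.44 and 7.94 FPKM (WT) against 9.76, 10.1 and 9.64 FPKM (cKO; 1.19-fold, adjusted p = 0.0388). Both had narrow groups that did not overlap, and both lost the call without 5 libraries (up to 0.0997 without cKO 1 and 0.149 without cKO 2). Kat2b, the paralog of Kat2a, rested just outside the threshold at 3.53 ± 0.206 and 4.39 ± 0.135 FPKM (adjusted p = 0.0535). The coactivators Ep300 (9.21 ± 1.10 and 10.8 ± 0.220 FPKM) and Crebbp (13.5 ± 1.20 and 14.9 ± 0.563 FPKM) did not pass (adjusted p = 0.111 and 0.217).

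Of 17 PHD finger proteins outside the demethylases, Phf13 and Phf21b rose and 15 did not pass. Phf13 (ENSMUSG00000047777, chromosome 4, 151989633 to 151996258, minus strand), a reader of H3K4 trimethylation, measured 5.69, 6.22 and 5.51 FPKM (WT) against 7.71, 7.41 and 8.16 FPKM (cKO). The gap between the groups was wider than the range of either, and the mean rose 1.34-fold (log2 change 0.36, SE 0.0745, adjusted p = 0.00991; up to 0.0442 without WT 1). Phf21b (chromosome 15, 84785381 to 84856049, minus strand) measured 7.65, 7.99 and 8.21 FPKM (WT) against 10.3, 11.4 and 9.29 FPKM (cKO; 29.7% higher, adjusted p = 0.0208; lost without 3 libraries, up to 0.0943 without cKO 2). Its spread was in the cKO group, with cKO 2 highest. Its paralog Phf21a, a reader in the LSD1 complex, was at 11.9 ± 1.58 and 13.2 ± 1.17 FPKM and did not pass (adjusted p = 0.323).

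**Figure D3:**
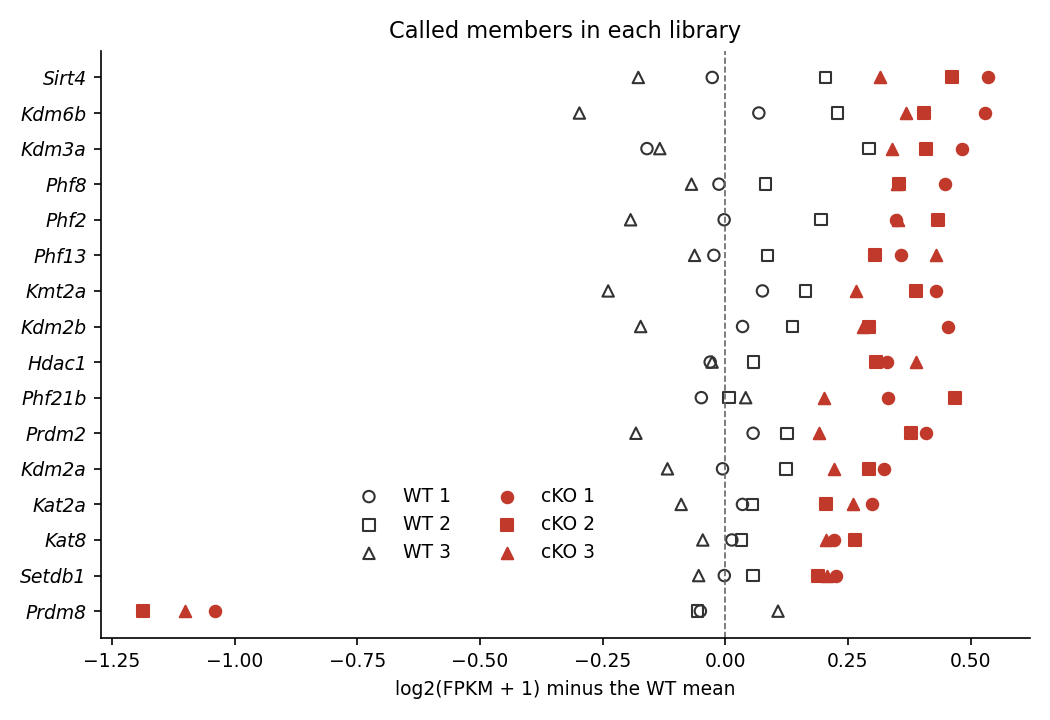
Log2(FPKM + 1) of each of the 16 called genes in each library, as the difference from the mean of the WT libraries (horizontal axis); open symbols are WT, filled red symbols are cKO, and circles, squares and triangles are libraries 1, 2 and 3. In the 15 genes that rose all filled symbols lie to the right of all open ones, and WT 2 is the rightmost open symbol in all of them but Phf21b.

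Ratios between paralogs within a library, chosen after the values were seen and not tested, were apart in 2 further pairs of the 8 computed. The ratio of Kdm3a to Kdm3b was 0.530, 0.710 and 0.547 in WT and 0.727, 0.735 and 0.738 in cKO, so that WT 2 came close to the cKO libraries. For Kmt2a to Kmt2b the ratio was at most 1.44 in WT (WT 2) and 1.49, 1.66 and 1.54 in cKO. The ratios of Ezh2 to Ezh1, Kat2a to Kat2b, Kdm2b to Kdm2a, Ehmt2 to Ehmt1 and Phf21a to Phf21b overlapped between the groups.

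The libraries of a group differed in where most of these genes lay. Of the 98, WT 2 was the highest WT library in 54 and WT 3 the lowest in 56, and cKO 1 was the highest cKO library in 51 and cKO 3 the lowest in 62. Over all genes these libraries held those places in 33.9%, 38.3%, 36.4% and 33.6%, and over genes at least as long as the median of the 98 in 47.0%, 56.0%, 40.5% and 43.1%. WT 3 was lowest in 57.1% of the 98, close to its share among those long genes. Relative to the WT mean, the median log2 position of the 98 genes was 0.0057, 0.053 and -0.057 in WT 1, 2 and 3 and 0.18, 0.12 and 0.085 in cKO 1, 2 and 3. All cKO medians were thus above all WT medians, with a distance between cKO 3 and WT 2 smaller than that between WT 2 and WT 3. For the 93 genes with a mean of at least 1 FPKM the median coefficient of variation was 8.6% in WT and 4.72% in cKO, for all such genes of the table it was 8.21% and 6.41%, and for genes at least as long as the median of the 98 it was 7.69% and 4.92%.

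**Figure D4:**
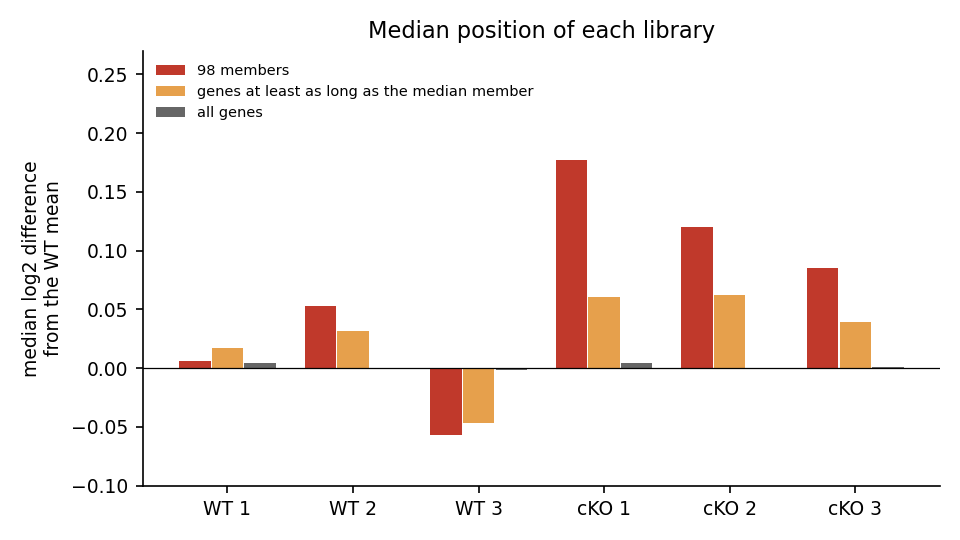
Median log2 difference of each library from the WT mean (vertical axis) over the 98 genes (red), over genes at least as long as their median (orange) and over all genes (grey). The red bars reach 0.18, 0.12 and 0.085 in the cKO libraries and stay between -0.057 and 0.053 in WT; the grey bars are near 0 throughout.

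Genes of histone modification have long transcripts, and the log2 change was higher for genes of greater exon length in the whole table. Across all genes with a known length, which are not independent replicates, Spearman's rho was 0.231; across the 98 it was 0.27. The median exon length of the 98 was 6386 bases against 4229 for all genes. Of the 4195 genes in the table with at least the median length of the 98, 10.2% were called higher and 6.29% lower, their groups did not overlap in 27% (higher) and 14.2% (lower), their median log2 change was 0.053, and 62.8% had a positive sign. Among the 49 of the 98 at or above that length, 8 were called higher and none lower by limma (none lower at an unadjusted p under 0.05 either), the median log2 change was 0.18 and 46 had a positive sign. Among the 49 shorter ones, 7 were called higher (14.3%) and Prdm8 lower (2.04%), against 6.12% and 9.43% of all genes of such length, and the median log2 change was 0.059 against -0.020 for all genes of such length. After each library was corrected for exon length and GC content, 16 of the 98 were called higher (8.26% of all genes), including the same 15, with a median log2 change of 0.10.

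**Figure D5:**
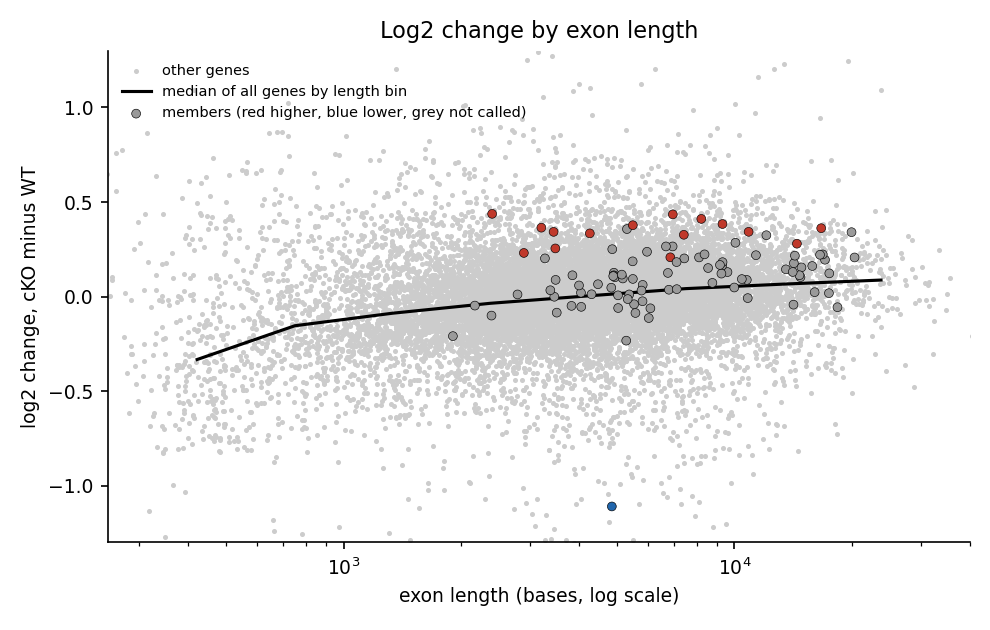
Log2 change (cKO minus WT, vertical axis, drawn from -1.3 to 1.3, so a few genes beyond are not shown) against exon length in bases (log axis) for all genes (pale grey), with the median of all genes in length bins (black line) and the 98 genes (outlined; red called higher, blue lower, grey not called). The line rises with length, and of the 49 longer genes 46 lie above 0.

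Phf8 is on the X chromosome, as are Phf6, Kdm5c, Kdm6a, Hdac6 and Hdac8, so the sex of the animals was read from the data. Xist, the RNA of the inactive X, was low in WT 1 (0.433 FPKM) and cKO 3 (0.407 FPKM) and between 127 and 158 FPKM in the other libraries, and the Y-linked Ddx3y was at 16.1 and 14.7 FPKM in those same libraries and at most 0.0250 FPKM elsewhere. Each group thus held 1 library of male and 2 of female pattern. Kdm5c and Kdm6a, demethylases of H3K4 and H3K27 known to escape X inactivation, were lowest in their group in these libraries: Kdm5c measured 15, 21.8 and 17.3 FPKM (WT) against 22.1, 22.5 and 17.1 FPKM (cKO), and Kdm6a at 5.01, 7.18 and 6.8 FPKM (WT) against 7.91, 8.55 and 6.17 FPKM (cKO). Neither passed the test of genotype (adjusted p = 0.374 and 0.278). With the Xist level as a further term, 8 of the 98 genes were called higher (5.9% of all genes) and Prdm8 lower (7.33%). Of the called members 7 lost the call with this term. They included Kat2a, Kat8, Kdm2a, Kdm6b, Kmt2a and Prdm2 (adjusted p from 0.0513 to 0.0679 in limma). Phf8 was among the 8 called higher with this term (adjusted p = 0.0181 in limma). Its WT 1 value (3.89 FPKM) lay between WT 3 (3.7 FPKM) and WT 2 (4.22 FPKM). Its cKO 3 value (5.29 FPKM) was the lowest of the cKO group, just below cKO 2 (5.3 FPKM).

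Other genes of the same machinery were taken from lists of complex partners and further enzymes, 153 genes outside the name rule. Of these, 15 rose, 2 fell and 136 did not pass. The shares were 9.80% higher and 1.31% lower, against 7.22% and 8.59% of all genes. The median log2 change was 0.084, against 0.0017 over all genes. Among 29 Polycomb accessory and Polycomb repressive complex 1 subunits 3 rose: Cbx6, a chromobox subunit, from 13 ± 1.43 to 18.2 ± 0.690 FPKM, Pcgf6 from 11 ± 2.17 to 17.2 ± 1.90 FPKM, and Auts2, a subunit known from neurons, from 2.05 ± 0.0638 to 3.18 ± 0.183 FPKM. These 3 calls held without each library (adjusted p of up to 0.0266, 0.0461 and 0.0259). Of 11 genes of DNA methylation, 3 rose, the de novo methyltransferase Dnmt3a (8.99 ± 1.38 to 11.7 ± 0.242 FPKM), the dioxygenase Tet2 (6.81 ± 0.623 to 9.19 ± 0.969 FPKM) and Uhrf2 (9.19 ± 1.83 to 12.5 ± 1.05 FPKM), and all 11 had a positive log2 change. In 5, 2 and 5 leave-one-out fits they were not called (adjusted p as high as 0.0994, 0.0862 and 0.138, all with cKO 1 left out), and Tet2 was not called after the length and GC correction (adjusted p = 0.0555).

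Among 26 subunits of deacetylase corepressor complexes 3 rose: Zmym3 (20.6 ± 1.65 to 26 ± 1.32 FPKM), Tbl1x of the NCoR complex (20.6 ± 0.899 to 24.4 ± 0.379 FPKM) and Sap30 of the Sin3 complex (13.3 ± 1.48 to 16.5 ± 1.01 FPKM). Of 29 readers of acetyl- and methyl-lysine 3 rose: Atad2b (7.58 ± 1.12 to 10.2 ± 0.434 FPKM), Yeats2 (12.8 ± 0.622 to 15.6 ± 0.462 FPKM) and Zmynd8 (14.5 ± 2.03 to 18.8 ± 1.05 FPKM). Brpf3 and Epc1, scaffolds of acetyltransferase complexes, rose among 21 such subunits, from 3.73 ± 0.182 to 4.97 ± 0.201 FPKM and from 23 ± 1.36 to 27.6 ± 0.739 FPKM. These 8 calls were each lost without 1 to 5 libraries (Zmym3 only without cKO 1, adjusted p = 0.0718). Of 20 further histone methyltransferases, Smyd3 rose (4.47 ± 0.287 to 6.39 ± 0.436 FPKM; held without each library, adjusted p of up to 0.0287) and the neuronal arginine methyltransferase Prmt8 fell (12.9 ± 1.31 to 9.95 ± 0.586 FPKM; lost without 3 libraries, up to 0.0903 without cKO 2). Of 8 further demethylase genes Jmjd1c fell, from 17.4 ± 0.839 to 13.7 ± 0.779 FPKM, a call lost without WT 1 (adjusted p = 0.0582). None of 10 subunits of the COMPASS complexes of H3K4 methylation was called by limma; the 2 most abundant, Psip1 and Hcfc1, were at 67.4 ± 1.78 and 67.9 ± 2.11 FPKM and at 28.7 ± 2.19 and 30.5 ± 1.29 FPKM.

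Depth recovered from the FPKM values was 25.3 to 28.8 M reads in genes per library and is approximate. In every library it exceeded the library size used to recover it (23.2 to 26.1 M), and the cause was not tested. The voom fit used these recovered reads. Markers of forebrain and cortical neurons were present in every library, with a sum over 7 genes of 548 to 600 FPKM (WT) and 601 to 638 FPKM (cKO); 2 of the 7 were called lower, none higher, and the median log2 change was -0.14. Markers of other cells moved with genotype, and their part in the results above was not tested. Of 6 markers of dividing cells 2 rose (Mki67, Top2a), with a sum of 54.5 to 60.2 FPKM (WT) and 56.5 to 69.8 FPKM (cKO), and of 7 progenitor markers 1 rose (Eomes; 98.8 to 105 FPKM and 94.9 to 121 FPKM). Of 6 astrocyte markers 5 fell (92.9 to 117 FPKM in WT, 60.4 to 71.9 FPKM in cKO), of 7 interneuron markers 3 fell (100 to 109 and 78.9 to 89.2 FPKM), of 5 oligodendrocyte lineage markers 2 fell (56.5 to 64.3 and 41.2 to 50.5 FPKM) and of 6 microglia markers 2 fell (16.5 to 19.9 and 9.81 to 15.2 FPKM). None of 5 endothelial and mural markers was called by limma (49.8 to 58.1 and 45.9 to 50.9 FPKM), nor were 3 red blood cell genes (31.7 to 36.3 and 28.2 to 34.9 FPKM). Of 6 markers of midbrain, striatum and thalamus 3 were in the table and 1 fell (9.47 to 13.2 and 7.45 to 9.10 FPKM). No marker in the table was at 0 in all libraries.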

How the data were processed

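The authors deposited 1 table of FPKM values per gene and library, as its first line states (per the file headers). The submitters' processing notes name bcl2fastq 1.8.4, STAR 2.5.4b, featureCounts 1.6.1, R 3.4.1 and DESeq2 1.22.1 and the build mm10. Not given in the sources used here are the annotation release, strandedness and low-value filter. Of 15703 genes, 15661 matched GENCODE M21, which gave coordinates and exon lengths, and 139 blank lines were left out. Median-of-ratios factors of the FPKM values were 1 in every library, so the libraries had been scaled alike before deposit. Multiplying by exon length and a library size of 23.2 to 26.1 M gave whole reads (within 0.1) for 94.8% to 96% of values in low genes.

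Genotype was the only term in limma 3.58.1 (R 4.3.3; mean-variance trend, robust) on log2(FPKM + 1), which understates changes of low genes; fold changes are ratios of mean FPKM. No further filter was used, so all 98 genes were tested. The test was also run on simulated data with independent noise in each gene. Those data lacked the shifts that many genes shared within a library here, so the run cannot vouch for the calls above. Summaries and figures were made with Python 3.11.15. The members, role classes and partner lists were chosen with earlier results of these data known. All called members are named with values in each library, up to 3 of the highest in a role class with none called, and up to 4 called genes per partner list (the 2 highest where none was called); members that were not called, in a class with a called one, were named after their values were seen. Some items are not reported here. P-values rest on the spread between these animals only, with the variance of each gene drawn by limma toward that of genes of similar level.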

Additional observations from a re-analysis of the deposited data

How the results depend on the processing

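Members called higher numbered 15, and 3 to 28 when a library was left out. They numbered 29 in limma's voom on recovered reads, which kept all 15, and 8 with the Xist level as a further term, an alternative chosen after seeing the data. Partner genes called higher numbered 15 (7.22% of all genes were called higher) and 28 in voom (10.8%). Without a library they ran from 4 without cKO 1 (3.6% of all genes) to 34 without WT 2 (10%). Partner genes called lower numbered 2 (8.59% of all genes), from 0 without WT 1 (5.29%) to 4 without WT 2 (9.66%). Other pseudocounts (0.1, 0.5), a minimum mean of 1 FPKM, median-of-ratios scaling and the length and GC correction kept the calls of all 16 members, and the length and GC correction added Kmt2d. Without trend and robust fitting 4 calls were lost (Kdm3a, Kmt2a, Prdm2, Setdb1). In that fit 13 members were called higher (6.72% of all genes), some of them newly. Among the named partners, calls were lost for Tet2 (length and GC correction), Uhrf2 and Sap30 (no trend), Sap30 (voom) and Dnmt3a, Sap30 and Tbl1x (Xist term). The samples share a replicate number only: deviations of same-numbered libraries correlated at -0.0427, 0.109 and -0.0377 over 13071 genes. With the replicate block 17 members were called higher (8.11% of all genes) and 1 lower, partners numbered 22 and 3, and of the 16 members only Setdb1 (adjusted p = 0.0562 in limma) was no longer called, while Ezh2, Kmt2d and Setd1b were gained. The log2 change of genes that were not called changed sign in these fits, and the cause was not tested: Psip1 was at -0.0081 with the length and GC correction, and the fits without 1 library ran from -0.014 to 0.029 for Psip1 (-0.014 without cKO 3, -0.0095 without WT 1), -0.11 to 0.029 for Eed (0.029 without cKO 2, 0.018 without WT 3), -0.079 to 0.11 for Hdac10 (-0.079 without cKO 1), -0.032 to 0.17 for Hdac5 (-0.032 without WT 3), -0.077 to 0.042 for Hdac6 (0.042 without WT 1, 0.0046 without cKO 3), -0.016 to 0.20 for Hdac7 (-0.016 without cKO 1), -0.0047 to 0.12 for Kmt5c (-0.0047 without cKO 1) and -0.091 to 0.11 for Setd4 (-0.091 without cKO 1, -0.070 without WT 2, -0.0035 without WT 1). The depth is approximate, so no counting error is given for single values.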
